A study of Mus musculus with 12 samples.

Results

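Kidney libraries of mice that received cisplatin and then saline (3 libraries) were compared with those of untreated mice (3 libraries), across every gene of the deposited read count table. These 6 libraries, taken by their group labels, are 6 of the 12 in the series, and the other 6 come from cisplatin-treated mice given extracellular vesicles. All mice were wild-type C57BL/6 males, an inbred laboratory strain. The cisplatin group had received cisplatin at 9 mg/kg by intraperitoneal injection every week for 5 cycles, followed by 5 intravenous doses of phosphate-buffered saline (PBS) spaced 3 days apart, and the kidneys were removed 3 days after the last dose. The normal group had received neither cisplatin nor vesicles, and no saline injections are listed for it, so cisplatin and the injections cannot be told apart. The labels give 1 batch for all libraries and neither the age of the mice nor the hour of collection. They call the libraries biological replicates without saying that each came from its own mouse, so p-values here measure the spread between libraries. The groups are called normal and PBS below, and the libraries normal 1 to 3 and PBS 1 to 3.

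Cisplatin is a platinum drug that forms crosslinks in DNA, and the epithelium of the proximal tubule, which takes it up from the blood, is its main target in the kidney. The proximal tubule recovers most filtered glucose, amino acids, phosphate and protein, and runs on fatty acid oxidation and mitochondrial respiration. The thick ascending limb, the distal tubule and the collecting duct then adjust salt, water and acid. Injured tubule cells lose transporters and gain keratins, adhesion molecules and secreted injury proteins, while interstitial fibroblasts lay down matrix and macrophages gather around damaged tubules. A bulk library mixes all of these cells, and fewer cells of a type cannot be told apart from less RNA in each cell.

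Library depth was 52588887, 51852354 and 50266084 counts in normal 1 to 3 and 46598091, 62090819 and 56653230 counts in PBS 1 to 3. The labelled tissue fitted its markers: the proximal tubule genes Lrp2 and Slc34a1 and the loop of Henle gene Umod were each at 1904 CPM or more in every library (CPM, the read count per library total, on the usual counts-per-million scale, with totals scaled by edgeR's TMM factor). The mitochondrially encoded genes held 15.2 to 16.2% of the counts in the normal libraries and 14.7, 18.1 and 15.2% in PBS 1, PBS 2 and PBS 3. The PBS libraries lay far apart from each other. On the first principal component of these 6 libraries, which carried 53.5% of the variance of log2 CPM, they stood at 23.3, 93 and 53.1, against -62.3 to -49.4 for the normal libraries. PBS 2 was thus the library farthest from normal and PBS 1 the nearest. PBS 3 also held transcripts of fat cells, where Adipoq, named after its values were seen, which encodes the fat hormone adiponectin, reached 7.67 CPM. PBS 1 had 0.124 CPM of it and the remaining libraries had no count.

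Of 18730 genes tested by edgeR's quasi-likelihood test, 345 were higher and 169 lower in PBS at a Benjamini-Hochberg adjusted p under 0.05, which is 1.84% and 0.902% of the genes and 2.74% in all. Below, a gene is said to have risen or fallen only where it passed this threshold, and other values are given as levels or log2 fold changes, with their standard error (SE). All 514 called genes had no overlap between the libraries of the 2 groups. By comparison 5581 genes, 29.8%, had an unadjusted p under 0.05, and 20.3% of all genes had every PBS library above every normal library, with 20.0% the other way around. The calls needed all normal libraries and PBS 2: leaving out any normal library gave 0 calls, and leaving out PBS 2 gave 1. Leaving out PBS 3 gave 79 calls and leaving out PBS 1 gave 2277. For this reason each program is described below both by its calls and by its level in each library.

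**Figure D1:**
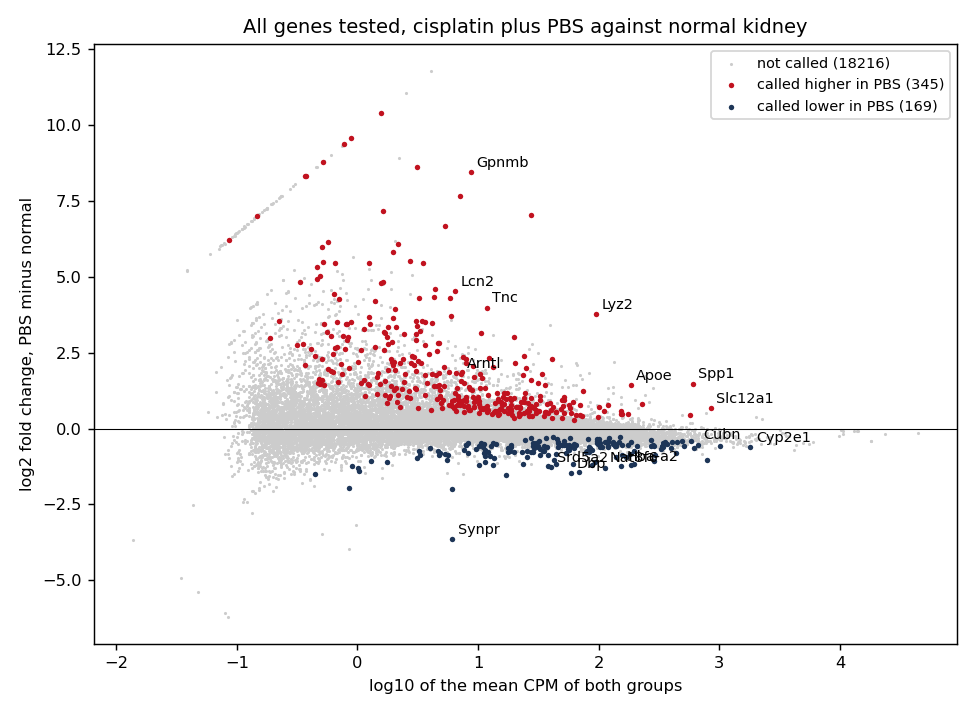
Log2 fold change of PBS against normal (y axis) against the log10 of the mean CPM of both groups (x axis) for the 18730 genes tested. Red points are the 345 genes called higher in PBS and blue points the 169 called lower. The largest rises are in genes with low mean CPM, and most called falls are above 10 CPM.

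A second measure asked which changes held in all 3 PBS libraries. A gene was counted as holding where each PBS library lay more than 1.5-fold above, or below, the mean of the normal libraries on the log2(CPM + 0.5) scale and the groups did not overlap. By this measure 760 genes, 4.06% of those tested, held as higher and 66, 0.352%, held as lower, 4.41% in all. Of the 760, edgeR called 217, and of the 66 it called 50. Without PBS 2, where only 2 libraries have to pass, the counts were 776 and 75. Lists of genes for cell types and pathways were followed with the same ratios: for each library, the median over the members of a list of the log2 ratio to the mean of the normal libraries. The same median over all genes tested was within 0.01 of 0 in each library, and the median fitted log2 fold change was 0.002.

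**Figure D2:**
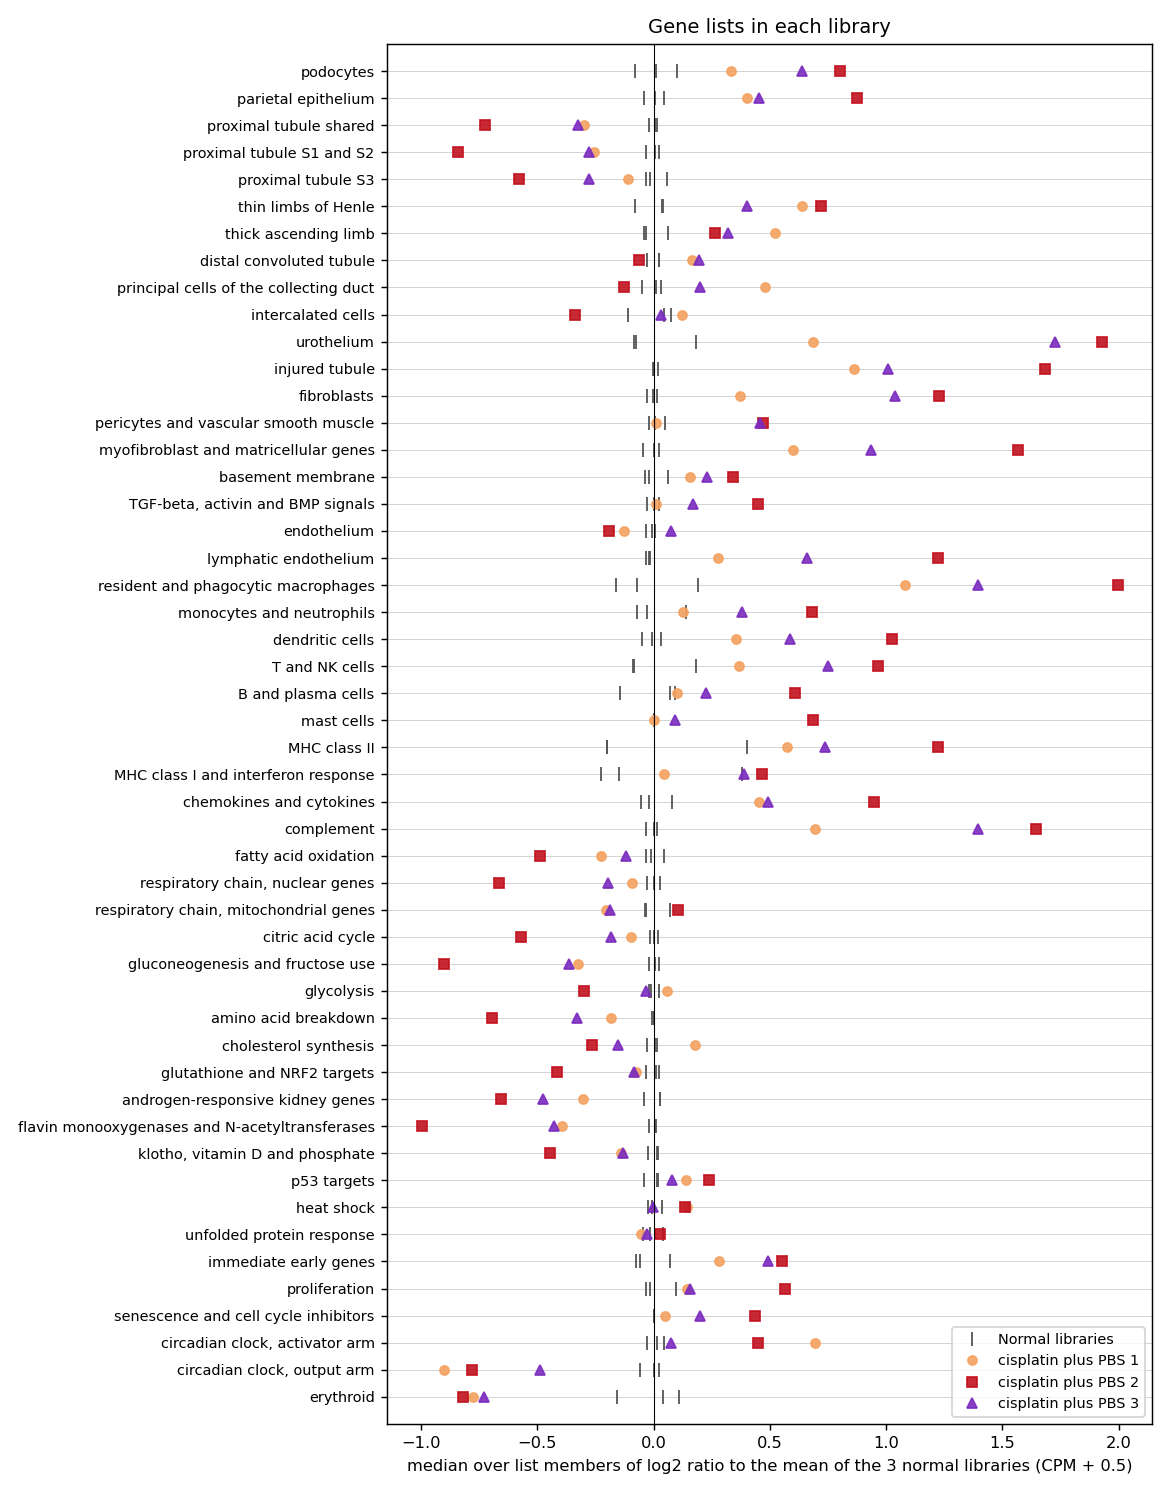
Median log2 ratio to the normal mean (x axis, log2 of CPM + 0.5) of the members of each gene list (y axis) in each library. Grey ticks are the 3 normal libraries, and the circle, square and triangle are PBS 1, PBS 2 and PBS 3. The square of PBS 2 is the farthest from 0 in 41 of the 49 lists of kidney, immune, metabolic and stress genes, while thick ascending limb and clock output genes are farthest in PBS 1.

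Genes of the proximal tubule were lower in every PBS library. In the list shared by all proximal segments the median member lay at -0.30, -0.72 and -0.33 in PBS 1, PBS 2 and PBS 3, on the log2 ratio scale. Of its 16 members, all tested, 2 fell and none rose, where 0.902% of all genes fell, and 14 had every PBS library below every normal library, where 20.0% of all genes did. Cubn, encoding the endocytic receptor cubilin (chromosome 2, 13276338 to 13491876, build GRCm38), had 814, 777 and 764 CPM in the normal libraries and 552, 544 and 536 CPM in PBS 1, PBS 2 and PBS 3. The PBS values were nearly equal and lay below each normal value, with a log2 fold change of -0.53 (SE 0.12, Benjamini-Hochberg p 0.0477 from edgeR). Cyp2e1, a cytochrome P450 and the other member that fell, had 2227, 2103 and 2226 CPM in normal and 1643, 1182 and 1485 CPM in PBS, so that PBS 2 was the lowest. Lrp2, which encodes the endocytic partner of cubilin, megalin, had 2582, 2062 and 2341 CPM in PBS against 3486, 3343 and 3057 CPM in normal and a Benjamini-Hochberg p of 0.0642 from edgeR. The fatty acid transporter gene Slc27a2 and the acyl-CoA synthetase gene Acsm2 had log2 fold changes of -0.53 and -0.45, neither of them called. Without PBS 2 the fitted median of this list was -0.30, against -0.45 with it.

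The convoluted and the straight part of the proximal tubule were both lower in PBS. In the list of segments S1 and S2 the library medians were -0.26, -0.84 and -0.28, and 2 of 15 members fell. In the list of segment S3 they were -0.11, -0.58 and -0.28, and 2 of 16 fell. The share of all genes that fell was 0.902%. Slco1a1, an organic anion transporter of the brush border, had 779.8, 754 and 736 CPM in normal and 508, 485 and 465 CPM in PBS. It fell by a similar amount in each PBS library. Slc2a2, the gene of the basolateral glucose transporter GLUT2, had 208, 194 and 222 CPM in normal and 150.1, 116 and 162 CPM in PBS, again with PBS 2 lowest. The S3 transporter genes Slc5a8, for monocarboxylates, and Slc22a30, of the organic anion transporter family, fell as well, with log2 fold changes of -0.49 (SE 0.10) and -0.53 (SE 0.12). The S3 amino acid transporter gene Slc7a13 was just short of the threshold, with 722, 564 and 644 CPM in PBS against 897, 924 and 880.1 CPM in normal and a Benjamini-Hochberg p of 0.0503 from edgeR. Without PBS 2 the fitted medians were -0.28 for S1 and S2 and -0.20 for S3, against -0.44 and -0.32 with it.

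Kidney genes that respond to male sex hormone were lower in all 3 PBS libraries. Of the 21 members of this list 6 fell, where 0.902% of all genes did, and 1 rose. Every PBS library lay below every normal library for 17, where 20.0% of all genes did. Of the 6 that fell, 3 (Cyp2e1, Slco1a1 and Slc22a30) are also in the proximal tubule lists above. Srd5a2, the gene of the steroid 5-alpha-reductase that makes dihydrotestosterone (chromosome 17, 74014891 to 74047860), had 54.4, 67.5 and 50.1 CPM in normal and 25.8, 23.4 and 21.9 CPM in PBS. The highest PBS value was about 2-fold below the lowest normal value, and the log2 fold change was -1.27 (SE 0.15, Benjamini-Hochberg p 0.0174 from edgeR). Cyp4a12a, a fatty acid hydroxylase gene, had 418, 404 and 353 CPM in normal and 215, 162 and 181 CPM in PBS. Its close copy Cyp4a12b had 73.2, 68.7 and 63.6 CPM and 43.5, 34.0 and 39.3 CPM, and reads of such a pair may be split between the copies, so the share of each is uncertain. The member that rose was Aoc1, encoding diamine oxidase, which degrades histamine and polyamines. It was named after its values were seen, and had 1.95, 1.95 and 2.49 CPM in normal and 13.9, 28.4 and 14.8 CPM in PBS.

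The Nat8 family of N-acetyltransferase genes, whose member Nat8 acts in forming mercapturic acids in the proximal tubule, was listed together with the flavin monooxygenase genes. Of these 14 genes 6 fell and none rose, where 0.902% of all genes fell. The 5 that held as lower in all 3 libraries, where 0.352% of all genes did, were all of the Nat8 family. Nat8f6 (chromosome 6, 85808044 to 85809877) had 149.9, 158 and 168 CPM in normal and 72.0, 43.7 and 78.7 CPM in PBS. Nat8f5 had 51.0, 51.7 and 56.2 CPM and 25.0, 16.9 and 25.2 CPM, and Nat8f3 and Nat8f7 had log2 fold changes of -1.18 (SE 0.20) and -1.18 (SE 0.21). Nat8 itself, named after its values were seen, had 205, 201 and 197 CPM and 134, 69.6 and 126 CPM. PBS 2 was the lowest for each of these 5 genes, and PBS 1 and PBS 3 were close together. These genes resemble each other, so reads may also be shared among them. Fmo2, a flavin monooxygenase gene, fell more evenly, from 411, 395 and 418 CPM to 287, 292 and 312 CPM.

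Metabolic genes of the proximal tubule were lower by small amounts that were largest in PBS 2. In the list of gluconeogenesis and fructose use all 12 members had every PBS library below every normal library, where 20.0% of all genes did. Library medians were -0.32, -0.90 and -0.36. A single member fell, the fructose transporter gene Slc2a5, from 102, 117 and 111 CPM in normal to 74.8, 48.7 and 79.0 CPM in PBS. Slc37a4, the glucose-6-phosphate transporter gene, and Pcx, the pyruvate carboxylase gene, had log2 fold changes of -0.64 (SE 0.16) and -0.59 (SE 0.17) and were not called. In the list of amino acid breakdown 1 of 37 members tested fell, where 0.902% of all genes did. Of the 39 listed, 30 had every PBS library below every normal library, where 20.0% of all genes did. Library medians were -0.18, -0.69 and -0.33. The member that fell was Hpd, which encodes the tyrosine-degrading dioxygenase, with 56.3, 56.4 and 58.5 CPM in normal and 34.3, 20.5 and 29.4 CPM in PBS. It was more than 1.5-fold lower in each PBS library.

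Fatty acid oxidation, the citric acid cycle and the nuclear genes of the respiratory chain had no called member, in lists of 36, 20 and 35 genes. Their fitted medians were -0.29, -0.27 and -0.28, and -0.18, -0.13 and -0.14 without PBS 2. In the last list PBS 2 was the lowest library for all 35 members. Library medians were -0.23, -0.49 and -0.12 for fatty acid oxidation and -0.09, -0.67 and -0.20 for the nuclear respiratory chain genes, so PBS 1 and PBS 3 lay closer to normal. Cpt1a, which controls the entry of fatty acids into mitochondria, had 621, 632 and 664 CPM in normal and 445, 434 and 560.5 CPM in PBS. Sdhb, a subunit gene of complex II, had 306, 297 and 284 CPM in normal and 266, 149 and 235 CPM in PBS. The groups did not overlap for either gene, and edgeR's Benjamini-Hochberg p was 0.0547 for Cpt1a and 0.115 for Sdhb. The mitochondrially encoded genes differed from this pattern in PBS 2: their library medians were -0.21, 0.10 and -0.19, with PBS 2 on the other side of 0. None of the 13 was called, and all 13 had a negative log2 fold change. For 6 of them every PBS library lay below every normal library, where 20.0% of all genes did.

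In glycolysis the fitted median was near 0 (-0.01), and single members went apart. Pfkp, the platelet-type phosphofructokinase gene, rose from 29.6, 36.4 and 28.3 CPM in normal to 50.9, 60.1 and 44.4 CPM in PBS. Hk2, the gene of hexokinase II, had 0.837, 0.226 and 0.519 CPM and 2.32, 3.75 and 3.27 CPM and was not called (Benjamini-Hochberg p 0.0548 from edgeR). In the list of cholesterol synthesis 1 of 21 members fell, where 0.902% of all genes did. This was the synthase gene Hmgcs1, with a log2 fold change of -0.40 (SE 0.10). None of the 27 genes of glutathione metabolism and NRF2 defence was called, and 8 of them had an unadjusted p under 0.05 on the lower side and 3 on the higher. None of the 11 tested genes of klotho, vitamin D and phosphate handling was called either. Slc34a1, the main phosphate transporter gene of the proximal tubule, had 6368, 6391 and 6665 CPM in normal and 5387, 3176 and 5173 CPM in PBS, with PBS 2 the lowest.

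The thick ascending limb went the other way. Of its 18 listed genes 17 were tested, and 7 rose and none fell, where 1.84% of all genes rose. Slc12a1, encoding the sodium-potassium-chloride cotransporter NKCC2 (chromosome 2, 125152510 to 125230002), had 598, 732 and 638 CPM in normal and 1054, 1184 and 900.5 CPM in PBS. All PBS values lay above all normal values, by a log2 fold change of 0.67 (SE 0.13, Benjamini-Hochberg p 0.0405 from edgeR). The potassium channel gene Kcnj1, whose product recycles potassium for this cotransporter, had 127, 125 and 139 CPM and 202, 172 and 166 CPM. Bsnd, encoding the chloride channel subunit barttin, had 37.1, 34.8 and 36.6 CPM and 47.7, 46.9 and 44.3 CPM. PBS 1 was the highest library for both. The genes of the claudins that let magnesium and calcium pass between cells rose as well. Cldn19 had 17.1, 20.1 and 17.9 CPM in normal and 35.7, 40.8 and 34.6 CPM in PBS, and Cldn16 had 4.82, 4.56 and 5.44 CPM and 8.58, 8.4 and 8.47 CPM. The Cldn16 values in PBS were almost identical in the 3 libraries. The transcription factor gene Irx2 and the prostaglandin receptor gene Ptger3 completed the 7, with log2 fold changes of 0.68 (SE 0.12) and 0.70 (SE 0.16), the last named after its values were seen. Other genes of the same segment did not rise: Umod, encoding uromodulin, had 1904, 2199 and 1944 CPM in normal and 2825, 2195 and 2459 CPM in PBS, with PBS 2 inside the normal range. Egf, the epidermal growth factor gene, named after its values were seen, had 944, 1013 and 1021 CPM and 1213, 762 and 1002 CPM, with PBS 1 above and PBS 2 below each normal library.

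The list of the thin limbs of the loop of Henle held 2 risen genes of 11, where 1.84% of all genes rose. Jag1, a Notch ligand gene, had 16.2, 16.5 and 15.6 CPM in normal and 25.3, 37.2 and 26.5 CPM in PBS. Fst, encoding follistatin, which binds and neutralises activin, had 1.48, 2.44 and 2.3 CPM and 9.8, 9.39 and 6.06 CPM. Both exceeded each normal library in all PBS libraries. Slc14a2, the urea transporter gene of the inner medulla, had 12.8, 12.5 and 3.28 CPM in normal and 63.7, 74.8 and 22.3 CPM in PBS, so that normal 3 and PBS 3 were the lowest of their groups. It missed the threshold, with a Benjamini-Hochberg p of 0.0545 from edgeR. Of the 11 genes 8 had a positive and 3 a negative log2 fold change. Aqp1, a water channel gene that the proximal tubule and endothelium lists also hold, had 866, 945 and 786 CPM in normal and 739, 473 and 639 CPM in PBS. Every PBS library lay below every normal library for Aqp1, which was not called, with a log2 fold change of -0.49 (SE 0.15).

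In the distal convoluted tubule none of 16 genes was called, and the fitted median was 0.06. Stk39, the gene of the kinase that activates the thiazide-sensitive cotransporter, came nearest, with 18.4, 21.7 and 18.1 CPM in normal and 26.0, 29.6 and 23.5 CPM in PBS (Benjamini-Hochberg p 0.0501 from edgeR). The cotransporter gene itself, Slc12a3, named after its values were seen, had 486, 455 and 492 CPM in normal and 579, 316 and 589 CPM in PBS, with PBS 2 below and the other PBS libraries above each normal library. In intercalated cells, which secrete acid or base, 1 of 16 genes rose, where 1.84% of all genes did. This was Foxi1, encoding the transcription factor that specifies these cells, with 21.3, 18.2 and 22.0 CPM in normal and 31.2, 30.5 and 29.2 CPM in PBS. The PBS values were close together, while the median of the list was 0.12, -0.34 and 0.03 in the 3 PBS libraries. Of the 16 genes 7 had every PBS library above every normal library, where 20.3% of all genes did, and none had them below. By fitted log2 fold change 7 were positive and 9 negative.

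In the list of principal cells of the collecting duct, which recover sodium and water, 3 of 16 genes rose and 1 fell. Of all genes 1.84% rose and 0.902% fell. A listed gene can also be expressed by other kidney cells, and which cells made these transcripts was not tested. Slc14a1, the gene of urea transporter B, had 1.2, 1.19 and 0.934 CPM in normal and 4.29, 7.31 and 2.73 CPM in PBS. Npnt, encoding the matrix protein nephronectin, had 127, 124 and 128 CPM and 199.5, 183 and 151 CPM. The transcription factor gene Gata3, which is also listed for pericytes and vascular smooth muscle, had a log2 fold change of 0.62 (SE 0.13). The gene that fell was Aqp4, encoding the basolateral water channel, from 29.1, 44.2 and 24.4 CPM to 18.9, 14.3 and 10.4 CPM. Each PBS library lay below each normal library for Aqp4, although the normal libraries differed from each other. Aqp2, the vasopressin-regulated water channel gene, named after its values were seen, had 77.1, 66.6 and 58.6 CPM in normal and 151, 60.6 and 65.8 CPM in PBS, and PBS 1 alone was high.

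**Figure D3:**
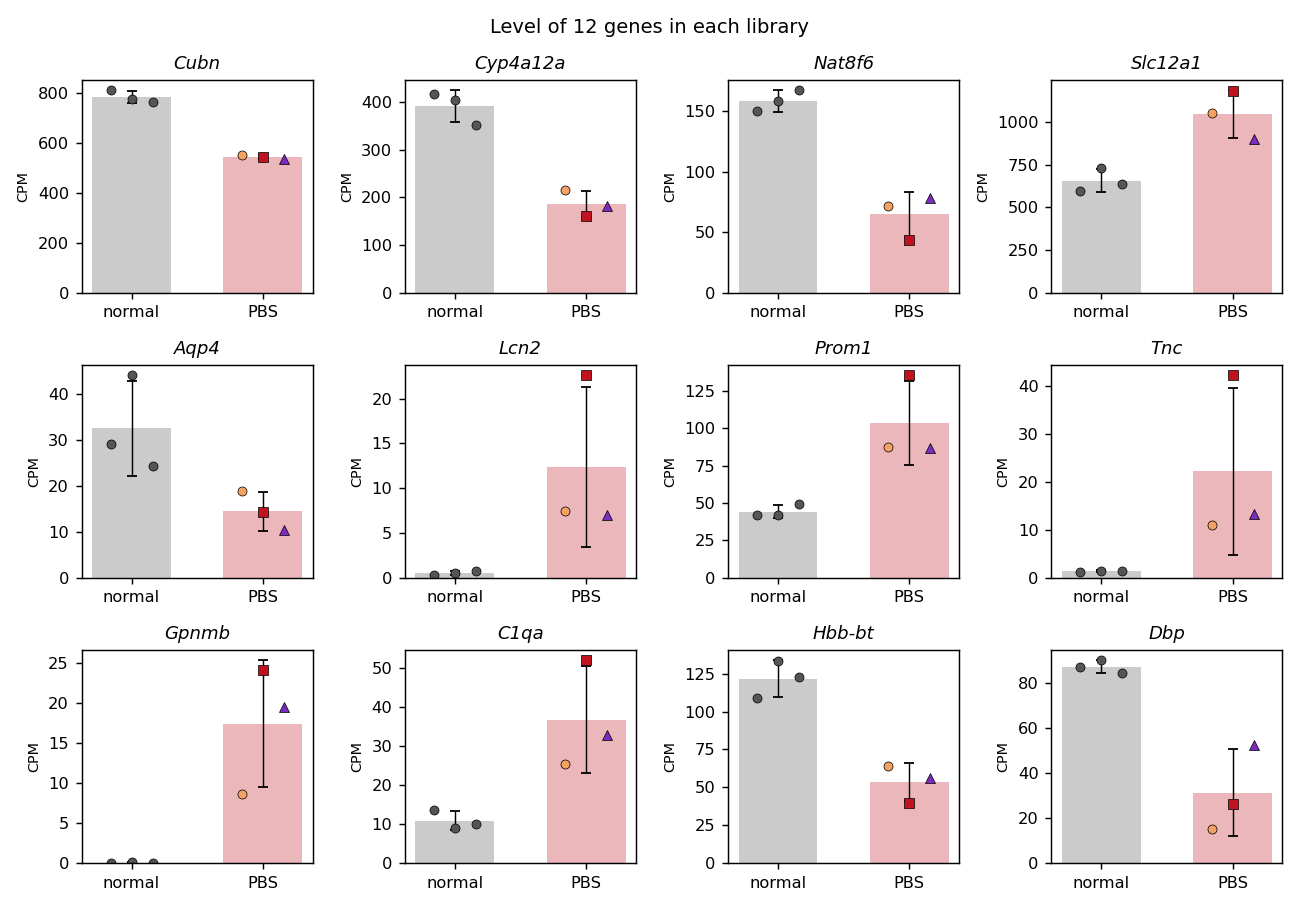
CPM of 12 genes (y axes, each from 0) in the normal and PBS groups. Bars are means, error bars SD over 3 libraries, and points single libraries, with PBS 1, PBS 2 and PBS 3 as orange circle, red square and purple triangle. Cubn and Hbb-bt are low in all PBS libraries, Lcn2, Tnc and C1qa are highest in PBS 2, and Dbp is lowest in PBS 1.

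Markers of injured tubules were higher in all PBS libraries. Of 40 listed genes 39 were tested, and 9 rose and none fell, where 1.84% of all genes rose. There were 26 that held as higher in every PBS library, where 4.06% of all genes did. Library medians were 0.86, 1.69 and 1.01, so the order was PBS 1, PBS 3, PBS 2. Lcn2, encoding the secreted iron-binding injury protein NGAL, had 0.339, 0.493 and 0.789 CPM in normal and 7.46, 22.6 and 7.01 CPM in PBS. Havcr1, the gene of the phosphatidylserine receptor KIM-1, which appears on injured proximal tubules, had 2.07, 1.33 and 1.18 CPM and 7.27, 16.1 and 5.36 CPM. PBS 2 was at least 2-fold above the other PBS libraries for both genes, and Havcr1 missed the threshold (Benjamini-Hochberg p 0.0836 from edgeR). Clu, encoding the secreted chaperone clusterin, had 169, 156 and 168 CPM in normal and 267, 287 and 313 CPM in PBS. Prom1, the CD133 gene, had 87.5, 136 and 86.9 CPM in PBS against 41.7, 41.6 and 49.2 CPM in normal. Spp1, encoding osteopontin, went from 335, 264 and 354 CPM to 758, 1087 and 804 CPM. This was the largest rise in CPM of any called gene with a full symbol. Sox9, encoding a transcription factor of tubule repair, had 0.219, 0.369 and 0.394 CPM in normal and 1.55, 5.33 and 2.11 CPM in PBS. In each of these genes the lowest PBS library exceeded the highest normal library.

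The remaining injury and cell cycle genes that were to be reported in any case did not pass the threshold. Vcam1, an adhesion molecule gene of injured tubules and endothelium, had 9.35, 6.82 and 6.06 CPM in normal and 21.7, 79.9 and 35.1 CPM in PBS. Krt20, a keratin gene, had 0.12, 0.123 and 0 CPM and 0.704, 2.34 and 1.67 CPM. Ccl2, the monocyte chemokine gene, had 0.438, 0.39 and 0.353 CPM and 1.66, 3.26 and 2.24 CPM, and Cdkn1a, encoding the cell cycle inhibitor p21, had 3.99, 3.31 and 3.78 CPM and 7.21, 13.3 and 7.47 CPM. All 4 held as higher in every PBS library, with Benjamini-Hochberg p from edgeR of 0.0665, 0.0629, 0.0617 and 0.0671 in the order given.

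Genes listed for the urothelium, the lining of the renal pelvis, were low in normal kidney and higher in PBS. Of 18 listed genes 5 rose, where 1.84% of all genes did, and 10 held as higher, where 4.06% did. The 5 are Upk3b, Psca, Krt19, Gsdmc2 and Gsdmc3, and the other uroplakin genes of the list were not called. Krt19 is also in the injured tubule list, and which cells made these transcripts was not tested. The summed level of the list was 4.03, 4.23 and 7.16 CPM in the normal libraries and 23.7, 68.3 and 48.0 CPM in PBS 1, PBS 2 and PBS 3. Upk3b, a uroplakin gene, had 0.399, 0.328 and 0.394 CPM and 1.84, 2.95 and 2.53 CPM, and Psca, encoding a surface antigen of urothelial and prostate cells, had 0.179, 0.287 and 0.477 CPM and 3.87, 8.69 and 6.06 CPM. Krt19, a keratin gene of ductal and injured epithelium, had 0.319, 0.349 and 1.04 CPM and 6.32, 16.5 and 10.7 CPM. The gasdermin genes Gsdmc2 and Gsdmc3, near-identical neighbours, had 2.3, 8.62 and 5.09 CPM and 1.43, 6.5 and 3.77 CPM in PBS and at most 0.249 CPM in a normal library.

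In the glomerulus, most podocyte genes were higher without a call. All 14 were tested and none passed. Every PBS library lay above every normal library for 9, where 20.3% of all genes did, and 12 had an unadjusted p under 0.05, where 29.8% of all genes did, 11 of them on the higher side. Clic5, an intracellular chloride channel gene and the member on the lower side, had 160.3, 154 and 162 CPM in normal and 127, 152 and 137 CPM in PBS, and was named after its values were seen. Ptpro, a podocyte phosphatase gene, had 12.0, 12.5 and 13.7 CPM in normal and 19.6, 26.9 and 23.5 CPM in PBS. Wt1, encoding the podocyte transcription factor, had 5.54, 5.69 and 6.27 CPM and 7.52, 14.3 and 10.9 CPM. PBS 2 was the highest of both. Of 8 genes of the parietal epithelium of Bowman's capsule 2 rose, where 1.84% of all genes did. Ncam1, a neural adhesion molecule gene, went from 1.1, 1.23 and 1.25 CPM to 4.02, 10.7 and 5.02 CPM. Scin, encoding an actin-severing protein, went from 19.2, 19.7 and 19.2 CPM to 44.8, 71.0 and 42.7 CPM.

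Stromal genes were higher in PBS, most in PBS 2 and least in PBS 1. Of 23 fibroblast genes 4 rose, where 1.84% of all genes did, and library medians were 0.37, 1.23 and 1.04. Of 37 listed myofibroblast and matricellular genes 36 were tested, 9 rose and 17 held as higher, with library medians of 0.60, 1.57 and 0.93. By comparison 1.84% of all genes rose and 4.06% held as higher. Tnc, encoding tenascin C, a matrix glycoprotein of wounds (chromosome 4, 63959785 to 64047015), had 1.24, 1.48 and 1.5 CPM in normal and 11.1, 42.3 and 13.2 CPM in PBS. Even the lowest PBS library was over 7-fold above the highest normal library, and PBS 2 was over 3-fold above the other 2. Ltbp2, encoding a latent TGF-beta binding protein of microfibrils, had 0.179, 0.123 and 0 CPM and 4.27, 17.2 and 9.98 CPM. Thbs1, encoding thrombospondin 1, an activator of TGF-beta, had 31.4, 31.8 and 37.9 CPM and 52.0, 83.8 and 58.5 CPM. Lox, the gene of lysyl oxidase, which crosslinks collagen, had 0.817, 1.38 and 1.31 CPM and 3.52, 14.9 and 6.2 CPM. The matrix metalloproteinase gene Mmp3 had no count in any normal library and 0.601, 3.28 and 1.46 CPM in PBS. Against the level that 3 counts over the normal group would give, 0.0204 CPM, its mean was at least 87.2-fold higher.

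The main collagen genes were highest in PBS 2 and missed the threshold. Col1a1 had 10.9, 10.4 and 10.6 CPM in normal and 24.7, 74.3 and 39.8 CPM in PBS, and Col3a1 had 23.1, 25.0 and 24.4 CPM and 53.7, 176 and 89.6 CPM. The normal libraries were close together and PBS 2 was the highest PBS library for both, with log2 fold changes of 2.12 (SE 0.58) and 2.15 (SE 0.58). Fn1, encoding fibronectin, had 28.9, 33.8 and 35.7 CPM and 57.1, 135 and 74.9 CPM. The small matrix protein genes Lum, for lumican, and Dpt, for dermatopontin, did pass. Lum had 0.698, 0.821 and 0.602 CPM in normal and 1.93, 9.46 and 4.8 CPM in PBS, and Dpt had 0.359, 0.452 and 0.81 CPM and 2.24, 11.4 and 5.14 CPM. Both were among the called genes with the widest spread, with PBS 2 more than 4-fold above PBS 1.

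Of 19 genes of pericytes and vascular smooth muscle 1 rose, where 1.84% of all genes did. This was Gata3, which the principal cell list also holds. Acta2, encoding smooth muscle actin, had 15.7, 17.4 and 16.6 CPM in normal and 20.3, 40.9 and 40.2 CPM in PBS, where PBS 1 was the nearest to normal and the other 2 libraries were high. Rgs5, a pericyte gene, had 23.6, 29.0 and 28.1 CPM and 28.0, 68.0 and 54.3 CPM, and PBS 1 lay within the normal range. Kcnj8, encoding a potassium channel subunit of pericytes, had 8.21, 7.64 and 5.83 CPM and 4.56, 4.85 and 5.21 CPM, and its log2 fold change of -0.57 (SE 0.15) did not pass.

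In the basement membrane list 2 of 21 genes rose and 1 fell, where 1.84% of all genes rose and 0.902% fell. Col4a6, a type IV collagen chain gene, had 1.18, 1.38 and 1.29 CPM in normal and 3.69, 6.27 and 4.42 CPM in PBS. Lama1, encoding a laminin chain of mature proximal tubules, fell from 37.4, 37.4 and 34.2 CPM to 26.3, 24.7 and 30.4 CPM. Among 26 genes of TGF-beta, activin and BMP signalling 3 rose and 1 fell, against the same shares of all genes. Inhba, the gene of the activin A subunit, had 0.12, 0.226 and 0.083 CPM and 0.684, 3.16 and 1.05 CPM, and the activin inhibitor gene Fst, given above, rose too. Grem1, encoding the BMP antagonist gremlin 1, had 0.953, 1.02 and 0.737 CPM in PBS, and normal 2 alone had counts among the normal libraries. Acvr2b, encoding an activin receptor, fell from 36.7, 36.1 and 23.6 CPM to 18.0, 19.2 and 20.0 CPM. Tgfb1 itself had 9.74, 9.28 and 9.84 CPM in normal and 9.84, 17.5 and 12.7 CPM in PBS, so PBS 1 matched the normal libraries.

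Endothelial genes stayed near normal as a list, with library medians of -0.13, -0.19 and 0.07. Of its 24 members 1 was called, where 2.74% of all genes were. Igfbp3, encoding an insulin-like growth factor binding protein, fell from 236, 214 and 245 CPM to 104, 106 and 175 CPM, and the fall was deeper in PBS 1 and PBS 2 than in PBS 3. Kdr, the gene of VEGF receptor 2, had 98.4, 91.7 and 104 CPM and 67.8, 70.0 and 89.6 CPM and was not called (Benjamini-Hochberg p 0.0976 from edgeR). Among 7 tested lymphatic genes 1 rose, where 1.84% of all genes did. This was Mmrn1, from 0.618, 0.616 and 0.727 CPM to 1.12, 3.52 and 2.34 CPM.

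Macrophage genes were higher in all PBS libraries. Of 35 listed genes 34 were tested, and 10 rose and none fell, where 1.84% of all genes rose. There were 27 that held as higher in all PBS libraries, where 4.06% of all genes did. Library medians were 1.08, 2.00 and 1.39, against -0.16 to 0.19 in the normal libraries. Gpnmb, a glycoprotein gene of lipid-laden phagocytes (chromosome 6, 49036518 to 49058182), had 0, 0.144 and 0 CPM in normal and 8.66, 24.2 and 19.5 CPM in PBS. Among genes of at least 5 CPM with a full symbol that held as higher, Gpnmb had the largest change in its weakest PBS library. Lyz2, the macrophage lysozyme gene, had 18.4, 9.96 and 10.7 CPM in normal and 109, 268 and 156 CPM in PBS, and its copy Lyz1 had 0.239, 0.0821 and 0.145 CPM and 3.92, 10.1 and 6.66 CPM, with the share of each uncertain where reads fit both. Apoe, encoding apolipoprotein E, had 97.9, 95.9 and 108 CPM and 194, 369 and 243 CPM. Ms4a7, a gene of resident macrophages, had 1.4, 0.636 and 0.81 CPM and 4.29, 9.3 and 5.56 CPM. In all of these the order of the PBS libraries was PBS 2, PBS 3, PBS 1. Retnla, encoding a protein of alternatively activated macrophages that fat tissue also makes, had no count in normal and 3.69, 6.09 and 5.27 CPM in PBS. Its mean was at least 246-fold above the level of 3 counts over the normal group, and missed the threshold (Benjamini-Hochberg p 0.061 from edgeR).

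Complement genes held 4 rises among 21 members, where 1.84% of all genes rose. Every PBS library lay above every normal library for 13 members and below for 3, where 20.3% and 20.0% of all genes did. C1qa, a C1q chain gene of macrophages, had 13.5, 8.91 and 9.9 CPM in normal and 25.3, 51.9 and 32.7 CPM in PBS, and the receptor gene C5ar1 had 0.618, 0.616 and 0.685 CPM and 2.03, 4.81 and 2.58 CPM. C6 and C7, encoding parts of the membrane attack complex, had 0.849, 4.13 and 1.91 CPM and 19.9, 58.9 and 42.5 CPM in PBS against 0.12, 0.226 and 0.187 CPM and 7.49, 7.43 and 8.41 CPM in normal. In the chemokine and cytokine list 3 of 29 tested members rose, against the same 1.84% of all genes. Cxcl13, encoding the chemokine that attracts B cells, had 0.497, 1.72 and 1.14 CPM in PBS, with counts in 1 normal library only, and Ccl12, a monocyte chemokine gene, had 0.199, 0.246 and 0.083 CPM and 0.663, 1.95 and 0.753 CPM. The third was Spp1, given above.

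Recruited myeloid cells and dendritic cells showed fewer calls than macrophages. None of the 12 tested genes of monocytes and neutrophils was called, and 1 of 12 dendritic cell genes rose, where 1.84% of all genes did. This was the transcription factor gene Batf3, from 0.219, 0.308 and 0.228 CPM to 0.704, 0.78 and 0.837 CPM. Itgam, the gene of the integrin CD11b, had 2.15, 1.33 and 1.64 CPM in normal and 5.97, 18.5 and 9.31 CPM in PBS, and Ccr2, the receptor gene for Ccl2, had 8.67, 7.33 and 7.83 CPM and 14.6, 41.6 and 23.3 CPM. Both held as higher in all PBS libraries. None of 9 MHC class II genes was called, and 4 held as higher, where 4.06% of all genes did. H2-Aa, a class II chain gene, had 94.3, 61.9 and 61.8 CPM in normal and 142, 248 and 179 CPM in PBS. Normal 1 was the highest normal library for this list, with a list median of 0.40 against 0.57, 1.22 and 0.73 in the PBS libraries. The same library led the normal libraries in the list of MHC class I and interferon genes, at 0.38 against 0.04, 0.47 and 0.39 in PBS. In that list 1 of 34 genes rose, where 1.84% of all genes did. This was the antiviral gene Oas2, from 2.99, 1.95 and 2.22 CPM to 4.85, 7.06 and 6.92 CPM.

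T cell genes were low in all libraries, and 4 of 25 tested members rose, where 1.84% of all genes did. Cd3d, a chain gene of the T cell receptor complex, had 0.219, 0.185 and 0.291 CPM in normal and 0.808, 0.996 and 0.938 CPM in PBS. Foxp3, the master regulator gene of regulatory T cells, had 0, 0 and 0.083 CPM and 1.2, 1.01 and 0.469 CPM. Il2ra, encoding the interleukin 2 receptor that these cells carry at high levels, had 0.14, 0.144 and 0.27 CPM and 0.849, 1.8 and 0.887 CPM, and Il7r, encoding the interleukin 7 receptor, had 0.438, 0.226 and 0.291 CPM and 1.51, 5.82 and 2.41 CPM. PBS 1 was the highest library for Foxp3 and PBS 2 for Cd3d, Il2ra and Il7r. None of the 13 tested genes listed for B and plasma cells was called. Among all 514 called genes, 8 were annotated as variable segments and 1 as a constant region. Igkc, the kappa light chain constant gene, had 81.1, 14.9 and 50.1 CPM in normal and 75.9, 414 and 175 CPM in PBS, so that PBS 1 lay inside the normal range and PBS 2 far above it. Among called genes of at least 5 CPM with a full symbol the variable segment Igkv4-72 had the widest spread in PBS, at 1.2, 20.9 and 2.71 CPM.

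Each stress program had at most 2 risen genes, where 1.84% of all genes rose and 0.902% fell. Of 25 p53 target genes 2 rose: Btg2, an antiproliferative gene, from 10.2, 10.1 and 9.36 CPM to 15.3, 21.1 and 17.2 CPM, and Ddit4l, an inhibitor of mTOR signalling, from 5.46, 4.99 and 5.19 CPM to 9.94, 10.8 and 9.07 CPM. The fitted median of the list was 0.13. The heat shock genes Hspa1a and Hspa1b, near-identical neighbours whose reads may be shared, rose with log2 fold changes of 0.76 (SE 0.13) and 0.89 (SE 0.15). Hspa1a had 14.8, 13.2 and 13.7 CPM in normal and 23.6, 26.4 and 20.7 CPM in PBS. The other 13 heat shock genes were not called, and the constitutive chaperone gene Hspa8 had 2388, 2250 and 2162 CPM and 1830, 1742 and 1903 CPM. None of 21 genes of the unfolded protein response was called, and the library medians of that list were -0.06, 0.03 and -0.03. Of 17 tested immediate early genes, which also respond to tissue handling, 1 rose, Klf2, from 6.12, 6.49 and 6.14 CPM to 8.47, 8.79 and 10.1 CPM. The median member was higher in every PBS library, with library medians of 0.28, 0.55 and 0.49 against -0.08 to 0.07 in normal. Of the 18 listed, 9 had every PBS library above every normal library, where 20.3% of all genes did. The other way around there were 2, where 20.0% of all genes did. None of 25 proliferation genes was called, and 21 had a positive log2 fold change, with library medians of 0.14, 0.56 and 0.16 against -0.04 to 0.10 in normal. Mki67, the gene of a protein of dividing cells, had 4.01, 4.84 and 4.69 CPM in normal and 6.71, 17.1 and 6.23 CPM in PBS, with PBS 2 apart from the rest. The member with the smallest p, the cyclin D1 gene Ccnd1, was 1 of the 4 with a negative log2 fold change (-0.35, SE 0.11). Ccnd1 had 267, 250 and 255 CPM in normal and 194, 188 and 223 CPM in PBS. Of 18 tested genes of senescence and cell cycle arrest 2 rose and 1 fell, among them Mmp3 and Igfbp3, given above. Cdkn2b, encoding the cell cycle inhibitor p15, rose from 0.339, 0.123 and 0.166 CPM to 1.53, 3.25 and 1.44 CPM.

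In the circadian clock, 6 output genes fell and the activator gene Arntl rose, and in most output genes PBS 1, not PBS 2, lay farthest from normal. The clock is a feedback loop in which the activator pair formed by the products of Arntl and Clock or Npas2 binds E-boxes, short DNA motifs with the letters CACGTG, and switches on the Per, Cry and Ciart repressors and output factors such as Dbp and Tef. Of 11 output genes 6 fell, 5 were not called and none rose, where 0.902% of all genes fell. Dbp (chromosome 7, 45705100 to 45710203) had 87.1, 90.2 and 84.4 CPM in normal and 15.1, 26.1 and 52.6 CPM in PBS, with a log2 fold change of -1.48 (SE 0.32). Ciart, encoding a repressor of the activator pair, had 10.5, 9.91 and 8.78 CPM and 1.01, 2.02 and 4.34 CPM. Tef had 358, 384 and 395 CPM and 173, 183 and 266 CPM, Per3 had 40.0, 45.2 and 42.6 CPM and 18.9, 21.5 and 28.9 CPM, and Cry2 had 20.8, 24.9 and 23.6 CPM and 12.1, 12.9 and 16.7 CPM. PBS 1 was the lowest and PBS 3 the nearest to normal in all 5. Per2 also fell, from 31.7, 32.3 and 37.1 CPM to 10.9, 19.3 and 22.5 CPM, and was named after its values were seen. PBS 1 had the largest change in 10 of the 11 output genes, against 18.4% of all genes with a mean PBS ratio below 0. Of 6 genes listed with the activators 1 rose, Arntl, with 3.27, 3.18 and 3.26 CPM in normal and 16.2, 10.5 and 7.33 CPM in PBS, and Npas2 had 3.31, 4.02 and 3.74 CPM and 13.6, 8.77 and 5.31 CPM without passing (Benjamini-Hochberg p 0.0518 from edgeR). Since no hour of collection is given, a change of the clock cannot be told apart from a difference in the time of day.

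The stretches below show where the E-box lies before the start of clock genes of these lists, for each listed gene in which it was found, whether or not the gene was called. They are RefSeq sequences of GRCm38.p6, 5′ to 3′ on the strand of the gene, with the E-box in capitals and up to 30 bases on each side.
Ciart, chr3:95882237-95882374, minus strand: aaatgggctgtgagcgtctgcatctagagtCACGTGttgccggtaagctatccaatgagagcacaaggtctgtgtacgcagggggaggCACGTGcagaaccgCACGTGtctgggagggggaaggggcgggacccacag
Tef, chr15:81802516-81802581, plus strand: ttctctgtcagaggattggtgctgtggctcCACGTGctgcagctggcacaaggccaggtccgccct
Tef, chr15:81811246-81811311, plus strand: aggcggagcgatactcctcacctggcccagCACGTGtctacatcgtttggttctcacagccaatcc
Per1, chr11:69098753-69098818, plus strand: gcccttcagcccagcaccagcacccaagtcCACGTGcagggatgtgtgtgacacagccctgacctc
Bhlhe41, chr6:145865538-145865603, minus strand: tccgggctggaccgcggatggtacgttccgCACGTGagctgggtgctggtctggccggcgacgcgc
Cry1, chr10:85185079-85185144, minus strand: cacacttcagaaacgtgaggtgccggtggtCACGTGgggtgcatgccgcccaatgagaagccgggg
The Ciart promoter held 3 copies of the motif within 116 bases of the start, and each Tef promoter held 1. The motif, which reads the same on both strands, was present in the 250 bases before a start for 4 of 10 output genes found in the table and 1 of 5 genes listed with the activators (Cry1, itself a repressor gene), against 6.86% of all 27025 genes in it. Per1, which holds the motif, had 21.7, 19.7 and 18.6 CPM in normal and 15.5, 16.4 and 18.9 CPM in PBS and was not called, and a further Per1 window in the table does not hold it. Bhlhe41, encoding a clock repressor, holds it and had 3.37, 3.74 and 3.9 CPM in normal and 2.07, 3.93 and 4.79 CPM in PBS, so that the groups overlapped. Cry1 holds it too, and neither gene was called. Per1, Bhlhe41 and Cry1 were named after their values were seen. Dbp, Per3 and Cry2 fell without these letters in this window. A match describes the letters only and does not show binding.

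Red blood cell transcripts were lower in PBS. Of 9 tested erythroid genes 5 fell, where 0.902% of all genes did. All 5 held as lower in every PBS library, where 0.352% of all genes did. Alas2, the gene of the erythroid heme synthesis enzyme, had 11.3, 16.1 and 14.9 CPM in normal and 6.32, 5.98 and 6.28 CPM in PBS, which were nearly equal. The globin genes Hba-a2 and Hbb-bt had 186, 229.9 and 228 CPM and 109, 133 and 123 CPM in normal, and 109.7, 66.6 and 98.1 CPM and 64.3, 39.6 and 56.1 CPM in PBS. The paired globin genes Hba-a1 and Hbb-bs had log2 fold changes of -1.20 (SE 0.25) and -1.15 (SE 0.23), and reads can fit both copies of a pair.

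Other named genes belonged to no list. Angptl7, encoding a secreted angiopoietin-like protein, had 26.9, 22.4 and 26.1 CPM in normal and 8.89, 8.48 and 8.97 CPM in PBS. Its PBS values were nearly identical and it fell with a log2 fold change of -1.52 (SE 0.23, Benjamini-Hochberg p 0.0321 from edgeR). Synpr, encoding the synaptic vesicle protein synaptoporin, had 10.4, 13.7 and 9.8 CPM and 1.33, 0.996 and 0.385 CPM. This was the largest fall by fold among called genes of at least 5 CPM with a full symbol. Dnase1, the gene of the secreted nuclease, had 1053, 1132 and 989 CPM and 651, 318 and 592 CPM, and Ces1f, a carboxylesterase gene, had 1241, 1250 and 1174 CPM and 889.7, 655 and 920.4 CPM. Irs2, encoding an adaptor of the insulin receptor, had 44.4, 44.0 and 26.7 CPM and 16.9, 15.6 and 18.2 CPM and held as lower without a call. Among rises, Gabrp, encoding a GABA receptor subunit of epithelia, had 0.0399, 0 and 0.166 CPM in normal and 6.84, 24.0 and 11.6 CPM in PBS, and Gxylt2, a glucoside xylosyltransferase gene that acts on Notch, had 0.379, 0.267 and 0.415 CPM and 4.06, 15.7 and 5.74 CPM. Sfrp1, encoding a secreted Wnt antagonist, was among the most even, with 88.4, 76.7 and 99.0 CPM and 136, 129.8 and 133 CPM. The called genes with the smallest spread in PBS also included Mtrex, an RNA helicase gene, Atrnl1, encoding an attractin-like membrane protein, and Fam210a, encoding a mitochondrial protein, which fell by 0.39, 0.41 and 0.44 on the log2 scale. Aak1, encoding a kinase of clathrin coats, had 102, 97.9 and 102 CPM and 46.6, 26.0 and 38.6 CPM. Its fall is uncertain, because Gm38495, named after its values were seen, which the RefSeq table gives as a synonym of Aak1, rose in the same libraries and their sum was 102, 97.9 and 103 CPM in normal and 87.2, 98.4 and 89.4 CPM in PBS.

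**Figure D4:**
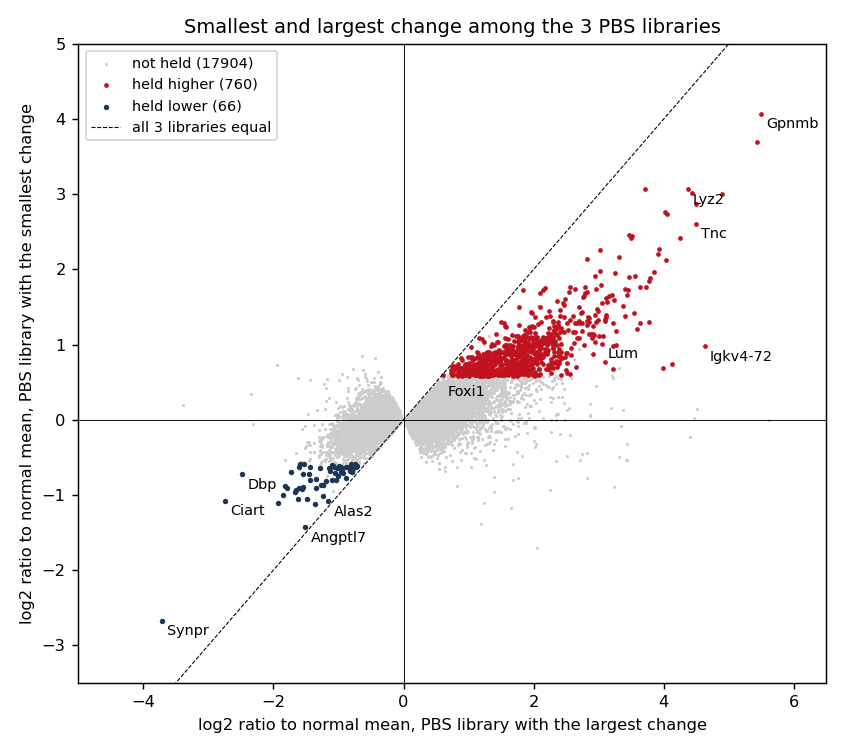
Log2 ratio to the normal mean in the PBS library with the smallest change (y axis) against that in the library with the largest change (x axis), for each gene tested, on the scale of log2(CPM + 0.5). Red points are the 760 genes that held as higher in all 3 PBS libraries and blue points the 66 that held as lower. Points near the dashed line, such as Angptl7 and Alas2, changed by a similar amount in all 3 libraries, while Igkv4-72 and Lum lie far from it.

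The spread between PBS libraries had a common direction. PBS 2 had the largest change in 92.1% of the 760 genes that held as higher and in 74.2% of the 66 that held as lower, against 66.3% and 67.0% of all genes with a mean PBS ratio above and below 0. The median log2 ratios of the genes that held as higher were 0.86, 1.76 and 1.17 in PBS 1, PBS 2 and PBS 3, and those of the genes that held as lower were -0.79, -1.12 and -0.84. Of the 49 lists of kidney, immune, metabolic and stress genes, 22 had all 3 PBS medians above all normal medians, 13 had them below, and 14 did neither. The 14 included the distal convoluted tubule, principal and intercalated cells, pericytes, endothelium, glycolysis, cholesterol synthesis, the mitochondrial genes and the unfolded protein response.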

How the data were processed

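Per the labels' protocols, kidney mRNA was made into libraries with a stranded kit and read from both ends over 101 bases. Per the submitters' processing notes, the tools were HISAT2 2.1.0, StringTie 2.1.3b, Trimmomatic 0.38 and FastQC 0.11.7, and the builds GRCm38 and mm10. Which program counted reads, whether it used strand, and which gene models it used is not given in the sources used here. Whole-number read counts for 45777 genes, as deposited by the authors, were used unchanged, and 24 further sample columns were not used. Coordinates and synonyms came from the RefSeq table of GRCm38.p6, in which 45679 genes matched.

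Counts were fitted with edgeR 4.0.16 in R 4.3.3 (quasi-likelihood test, TMM factors, default filter by group, 8 residual degrees of freedom), with all 12 libraries of the 4 groups sharing the estimate of spread. P-values were adjusted over 18730 genes by Benjamini-Hochberg, and calls were made under 0.05. SE is the absolute log2 fold change divided by the square root of F. Library ratios used a pseudocount of 0.5 CPM.

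The 55 gene lists hold 990 genes, 931 of them tested, and 53 genes are in several lists. Members and lists were chosen with earlier results of these data known, so counts over lists describe them and carry no test. Genes were named by rule: those with the largest change (10 at most in each direction), as many with the largest change in their weakest PBS library, among genes of at least 5 CPM with a full symbol. Up to 5 called genes per direction with the largest CPM difference, up to 5 members of each list with the smallest p, 12 injury and fibrosis genes, and the 6 called genes each with the widest and narrowest PBS spread were added. Other named genes are marked, and some genes counted in the lists are not reported here by name.

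Alternatives were DESeq2 1.42.0 and its size factors, limma 3.58.1 (voom with quality weights), other filters, folds and pseudocounts, the replicate number as a block, the 6 libraries alone, and leaving out each library. The scripts were tested on simulated data.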

Additional observations from a re-analysis of the deposited data

How the results depend on the processing

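The number of called genes (514) was 523 with DESeq2's size factors, 299 with no filter on low counts, 819 with at least 1 CPM in 3 libraries, 2806 with DESeq2, 6164 with limma-voom and 1449 in a fit of the 6 libraries alone. These held 502, 299, 475, 509, 512 and 477 of the 514. Leaving out 1 library gave 0 to 2277. With the replicate number as a block the count was 0, with 5154 genes at an unadjusted p under 0.05. The correlations of the deviations of same-numbered normal and PBS libraries from their group means were -0.063, -0.068 and 0.032. With 3 libraries a group these values cannot settle whether the numbers pair the samples. Limma-voom weighted PBS 1, PBS 2 and PBS 3 by 0.666, 0.163 and 3.467, and the normal libraries by 1.651 to 1.803. The 760 genes that held as higher became 1287 with a pseudocount of 0.1, 305 with 2, and 226 at 2-fold, and 749 to 1617 without 1 library. The 66 that held as lower became 126, 41 and 10, and 64 to 144 without 1 library. Fewer genes pass a larger fold or pseudocount by construction. For the other settings the cause was not tested. Fitted medians kept their sign under the settings tried in 47 of 55 lists. The exceptions were intercalated cells, endothelium, glycolysis, cholesterol synthesis, the unfolded protein response, fat cells, adrenal gland and skeletal muscle. Genes without a call changed sign as follows. Leaving out 1 library gave log2 fold changes of -0.10 to 0.69 for Aqp2, -0.10 to 0.30 for Slc12a3, -0.10 to 0.36 for Cry1, -0.17 to 0.17 for Egf and -0.28 to 0.25 for Bhlhe41. The values -0.10 and -0.08 for Slc12a3 came without PBS 3 and PBS 1. With limma-voom Cry1 was at -0.16 and Bhlhe41 at 0.21. Egf was at 0.009 with DESeq2's size factors, 0.015 with no filter, 0.013 with the 1 CPM filter and with DESeq2, 0.043 with limma-voom and 0.010 in the 6 libraries. Of 109 called genes named, all lost the call without any 1 normal library and under the block, 108 without PBS 2, 80 without PBS 3, 26 with no filter, 5 in the 6 libraries alone and 2 with limma-voom. Counts set the precision of low genes, such as those of T cells and urothelium under 1 CPM in normal kidney, and intervals between libraries rest on 3 a group.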

Other observations

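Markers of neighbouring tissues were counted in the same libraries. Of 14 fat cell genes 7 were tested and none was called. Cfd, encoding adipsin, had no count in normal and 0.435, 0 and 24.2 CPM in PBS, and Cidec, a lipid droplet gene, had 0.219, 0.308 and 0.291 CPM and 0.414, 0.231 and 7.35 CPM, so PBS 3 was high for both. Other listed genes did not follow: Pck1, a gluconeogenesis gene that the proximal tubule also expresses, had 1163, 987 and 1230 CPM in normal and 642, 638 and 909 CPM in PBS, and Lipe, the hormone-sensitive lipase gene, had a log2 fold change of -0.39 (SE 0.18) and was not called. Of the 7 tested, 4 had a positive and 3 a negative log2 fold change, and the list summed to 1244, 1101 and 1307 CPM in normal and 703, 690.2 and 1110 CPM in PBS, most of it Pck1. Without PBS 3 the complement list, which also holds Cfd, had a fitted median of 1.52 against 1.55 with it. Genes of the adrenal gland summed to 1.14, 1.38 and 1.68 CPM in normal and 1.39, 1.47 and 1.54 CPM in PBS, and 2 of 12 were tested with none called. Of 13 hepatocyte genes 11 were tested and 1 rose, where 1.84% of all genes did. This was Trf, which encodes transferrin, from 13.2, 13.5 and 13.8 CPM to 27.6, 52.3 and 43.1 CPM. None of the tested genes of skeletal muscle (4 of 11) and pancreas (1 of 10) was called. Of 8 mast cell genes 3 were tested and none was called.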
